A study of Mus musculus with 18 samples.

Results

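A set of 9 genes of the peripheral myelin sheath, Mbp, Pmp22, Prx, Mag, Ncmap, Egr2, Mal, Cldn19 and Gjb1, were followed in whole mouse dorsal root ganglia. They were chosen by gene symbol, and reads were summed per gene, which gave 9 genes of the 48529 with an entry in the annotation used. The ganglia came from the lumbar levels L2, L3 and L4 of male C57BL/KaLwRijHsd mice aged 5 to 7 weeks. The 9 animals of the MM group carried 5TGM1-GFP, a mouse line of malignant plasma cells, injected into the femur; the 9 animals of the SHAM group were injected with vehicle in its place. All ganglia were taken from the injected side on post-surgical day 24, snap frozen and sequenced as total RNA of the whole tissue, with no sorting of cells. Each library was taken as 1 mouse. Comparing MM with SHAM asks whether these ganglia differed when the femur on their side had been inoculated with myeloma.

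Schwann cells wrap the large axons that run through the ganglion in myelin, a stack of membrane layers that speeds the conduction of impulses. The transcription factor EGR2, working with SOX10, switches on the genes for the compact layers, the membrane that faces the axon and the junctions of the sheath. The amount of several of these proteins is tightly balanced: extra copies or loss of Pmp22, and mutations of Gjb1, Prx and Egr2, cause inherited neuropathies in people. Small unmyelinated axons, neuronal cell bodies and the satellite glia around them make up much of the rest of the tissue.

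The libraries held between 19014161 and 21538262 estimated reads in genes. All 9 myelin genes passed the filter on low counts, and the lowest estimate for any of them was 105 reads, for Egr2 in SHAM8. The tissue was checked on marker lists. The 10 neuron markers were all measured and summed to between 15595 and 21597 CPM (reads relative to the TMM-adjusted size of the library) in SHAM, and the 8 Schwann cell lineage markers to between 1204 and 1761 CPM. Oligodendrocytes, which myelinate the central nervous system and also use Mbp, Mag and Mal, were checked on 10 markers. Of these 7 had a mean under 1 CPM, and Mog, the surface glycoprotein of oligodendrocytes, chosen after its values were seen, did not exceed 0.552 CPM in any library, where 3 counts correspond to between 0.14 and 0.16 CPM. The 10 markers summed to between 13.6 and 127 CPM in MM and between 16.6 and 97.4 CPM in SHAM, with the claudin Cldn11 at 76.7 CPM in MM5 and 72.0 CPM in SHAM6, the highest library of each group. Mobp, a basic protein of central myelin, also chosen after its values were seen, ranged from 1.67 to 42.2 CPM in MM and from 0.32 to 24.6 CPM in SHAM, highest in MM5 and SHAM2. The part of such cells in the myelin values was not tested.

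The promoters of the genes are shown where the annotated starts carry results below: Pmp22, with a pair of starts in use, Gjb1, with 1 start that held nearly all reads, and Prx, the most variable of the structural genes. The sequences are those of RefSeq on GRCm38.p6, 250 bases 5′ of each start, 5′ to 3′. Promoter windows (250 bases before to 50 after a start) were listed for 8 of the 9 genes, in 22 windows; Mbp had no entry. Capitals mark matches, on either strand, to GCGNGGGCG or the shorter GNGGGNG, letters of EGR sites, and to ACAAAG or ACAAT, letters of SOX sites.
Pmp22 first start, chr11:63128732-63128981, plus strand: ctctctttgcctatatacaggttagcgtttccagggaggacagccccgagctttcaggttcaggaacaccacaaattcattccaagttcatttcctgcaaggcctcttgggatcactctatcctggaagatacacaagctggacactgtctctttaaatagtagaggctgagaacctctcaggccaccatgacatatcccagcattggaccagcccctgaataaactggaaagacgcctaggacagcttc
Pmp22 second start, chr11:63131207-63131456, plus strand: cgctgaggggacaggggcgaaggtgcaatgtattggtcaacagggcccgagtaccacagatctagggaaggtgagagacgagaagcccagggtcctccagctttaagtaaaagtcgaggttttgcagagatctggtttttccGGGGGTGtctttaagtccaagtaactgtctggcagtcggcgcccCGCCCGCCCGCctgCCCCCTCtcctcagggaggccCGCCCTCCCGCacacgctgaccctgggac
Gjb1 start nearest the coding exon, chrX:101383482-101383731, plus strand: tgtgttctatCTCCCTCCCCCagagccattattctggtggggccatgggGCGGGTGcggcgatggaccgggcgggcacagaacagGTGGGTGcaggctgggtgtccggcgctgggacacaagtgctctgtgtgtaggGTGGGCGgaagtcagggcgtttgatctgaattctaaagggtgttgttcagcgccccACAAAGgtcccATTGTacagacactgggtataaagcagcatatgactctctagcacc
Prx start, chr7:27499074-27499323, plus strand: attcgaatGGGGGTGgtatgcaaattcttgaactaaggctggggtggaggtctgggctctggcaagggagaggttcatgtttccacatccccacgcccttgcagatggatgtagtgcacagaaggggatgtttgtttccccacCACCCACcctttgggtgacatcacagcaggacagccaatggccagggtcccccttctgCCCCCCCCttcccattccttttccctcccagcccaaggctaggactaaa

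In the printed Pmp22 windows, none of the 4 motifs matched before the first start, and GNGGGNG matched 6 times before the second. The printed Gjb1 window held 5 matches to GNGGGNG, 1 to ACAAAG and 1 to ACAAT, and that of Prx held 4 to GNGGGNG. Over the full windows, GCGNGGGCG stood in 0 of 22, against 5.6% of all 32851 windows in the table. GNGGGNG, which lies within every GCGNGGGCG match, stood in 17 of 22 windows and in at least 1 window of all 8 genes, against 64.7% of all windows. ACAAAG stood in 4 of 22 (18.7% of all windows) and ACAAT in 5 of 22 (31.0% of all windows), each in windows of 2 genes. Some windows of the same gene overlap, as for Cldn19, Mag and Egr2, so a match can be counted more than once. The background was taken per window and not per gene, so the counts of genes have no share beside them. These are matches of letters, not mapped binding sites.

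Pmp22 and Mbp dominated the set. Levels between genes were compared in TPM, a scaled level that accounts for transcript length. In SHAM the order of mean TPM was Pmp22 at 2646 ± 1001, Mbp at 2372 ± 1055, Prx at 188 ± 82.1, Mal at 183 ± 71.8 and Ncmap at 118 ± 35.5 (SD, n = 9). Cldn19 followed at 84.8 ± 38.4 TPM, Mag at 51.8 ± 20.5 TPM, Gjb1 at 25.3 ± 11.1 TPM and Egr2 at 13.0 ± 4.54 TPM (SD, n = 9). Mbp and Pmp22 together made up between 87.3% and 89.9% of the summed TPM of the set in every library. Neighbours in the order overlapped in range, except Mbp and Prx, but the order within a library was steadier than the ranges show. Pmp22 was above Mbp in 8 of 9 libraries of each group, and the steps from Mbp to Prx and from Mal down to Gjb1 held in all 18 libraries. Prx and Mal traded places: Prx was higher in 5 of 9 libraries of each group. Gjb1 was above Egr2 in 9 of 9 SHAM libraries and in 6 of 9 MM libraries.

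**Figure D1:**
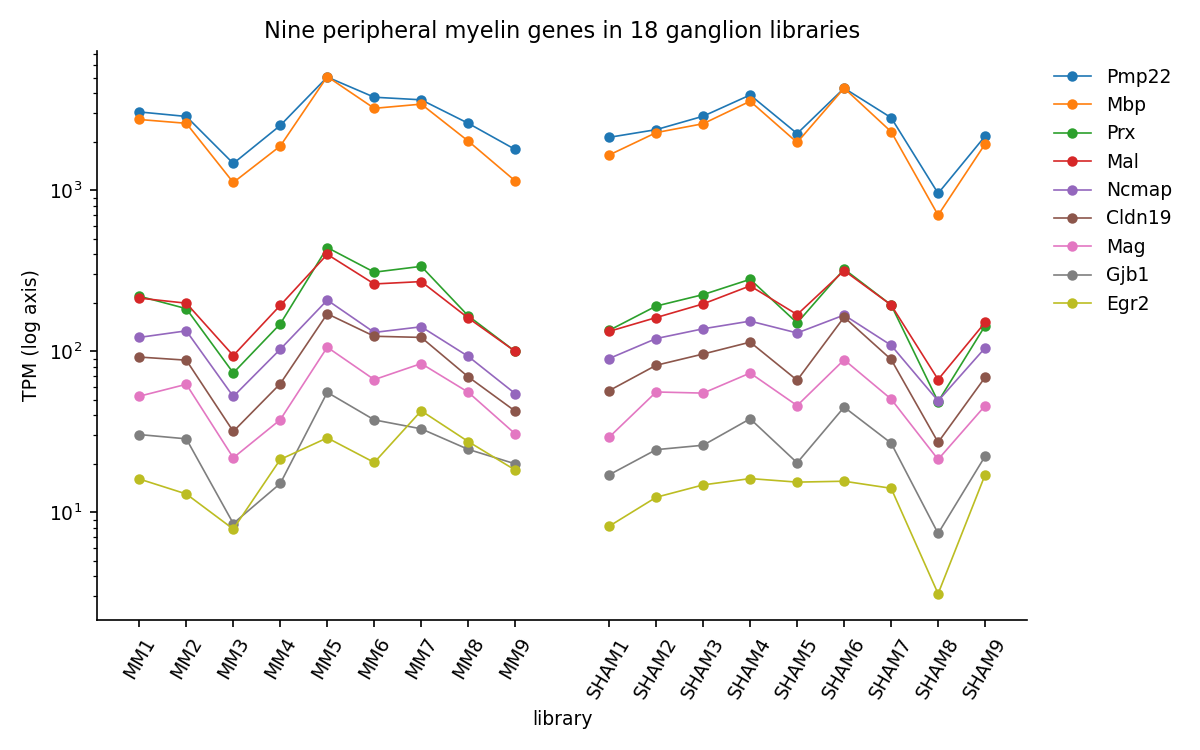
TPM of each myelin gene (log axis) in each of the 9 MM and 9 SHAM libraries; lines join the values of a gene within a group and carry no order. The lines of 8 genes run nearly in parallel with MM5 at the top, and SHAM8 is at the bottom for all 9. Egr2 follows them in part, with MM5 2nd and MM3 17th, but peaks in MM7.

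The 8 genes other than Egr2 rose and fell together from mouse to mouse, as their ranks below show. The summed level of all 9, most of it Mbp and Pmp22, averaged 6308 ± 2674 TPM over the MM libraries and 5682 ± 2308 TPM over the SHAM libraries (SD, n = 9 each), a ratio of 1.11. In MM it was lowest in MM3 at 2876 TPM, had a median of 6190 TPM and was highest in MM5 at 11545 TPM. In SHAM it was lowest in SHAM8 at 1882 TPM, had a median of 5311 TPM and was highest in SHAM6 at 9739 TPM. The highest library thus exceeded the lowest by 6.13-fold, and the groups overlapped over most of their range. In whole tissue, fewer myelinating cells in a sample and less myelin RNA per cell cannot be told apart.

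The same libraries stood at the ends for nearly every gene. MM5 was first of the 18 libraries for 8 genes, at 1.72 to 2.35 times the gene's median, and second for Egr2. SHAM8 was last for all 9 genes, at 0.26 to 0.406 times the median for the 8 genes other than Egr2 and at 0.197 times for Egr2. MM3 was 17th for all 9, and SHAM6 ranked between 2 and 3 for the 8 genes other than Egr2. Between the lowest and highest library the spread ran from 4.26-fold for Ncmap to 9.10-fold for Prx and 9.58-fold for Egr2. Few measured genes spread as widely. Among 14758 genes with a mean of at least 1 CPM, the SD of log2 CPM within SHAM had a median of 0.14, while the myelin genes lay between 0.48 for Ncmap and 0.75 for Prx, above 91.2% to 96.5% of those genes. Within MM they lay above 84.8% to 93.3% of genes.

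Divided by Mbp in the same library, most of this variation fell away. The SD of log2 TPM over 18 libraries was 0.73 for Cldn19, and that of its ratio to Mbp was 0.11. For Mal the values were 0.64 and 0.13, for Prx 0.80 and 0.15, and for Pmp22 0.58 and 0.18. Egr2 kept most of its spread, with an SD of 0.82 before and 0.61 after division by Mbp. The same gap showed in the rank correlation over 18 libraries between each gene and the mean of the set, of which each gene is itself a part: Spearman's rho was between 0.905 for Ncmap and 0.981 for Mag in 8 genes and was 0.639 for Egr2. These values describe libraries of both groups together.

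Other tissue markers differed between the libraries at the extremes. MM5, highest in myelin genes, had the lowest summed level of the 10 neuron markers, 9500 CPM against a MM median of 19069 CPM, and the highest summed level of the 8 fibroblast and perineurium markers, 2986 CPM against 1208 CPM. SHAM6 showed the same arrangement within SHAM, with 15595 CPM of neuron markers (the lowest) and 2175 CPM of fibroblast and perineurium markers (the highest). At the other end, the fibroblast and perineurium markers summed to 553 CPM in MM3 and 566 CPM in SHAM8, the lowest value of each group. SHAM8 also held 21633 CPM of the 9 skeletal muscle markers, against a SHAM median of 33.9 CPM, while MM3, nearly as low in myelin genes, held 79.3 CPM. Markers of plasma and myeloma cells summed to 4400 CPM in MM5, 904 CPM in MM3 and 8438 CPM in MM9, the highest, against a MM median of 843 CPM. Schwann cell lineage markers varied less than the myelin genes, by 1.71-fold over all libraries, and satellite glia markers by 1.49-fold. The part of any of these tissues in the myelin values was not tested.

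**Figure D2:**
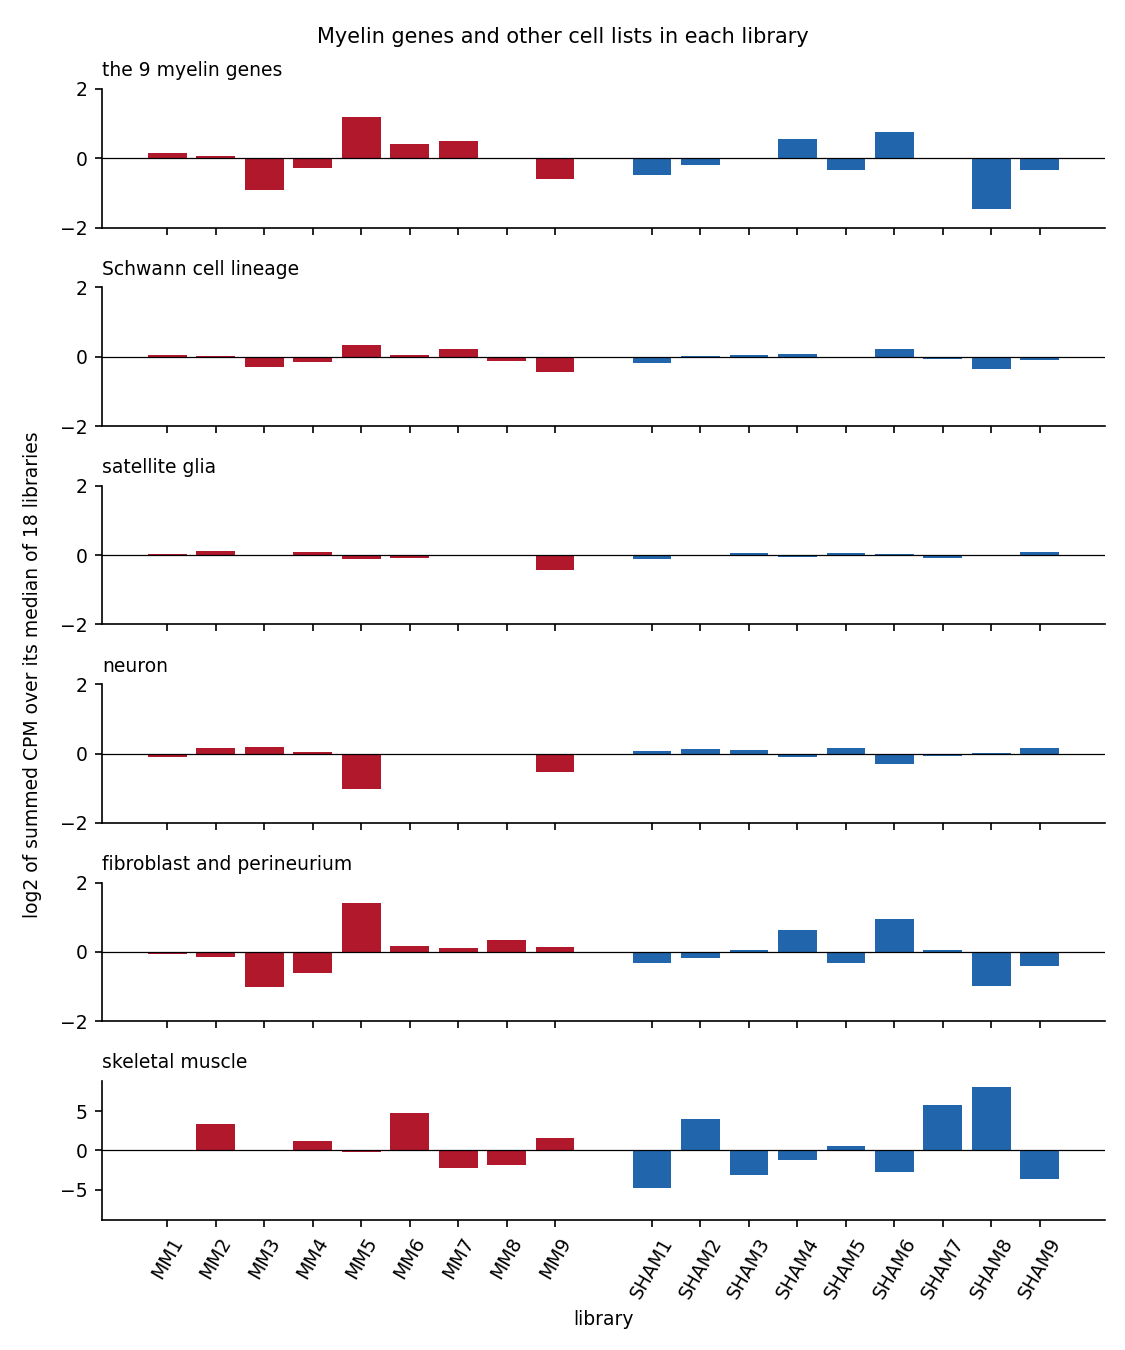
Log2 of the summed CPM of the 9 myelin genes and of 5 marker lists in each library, each over its own median of 18 libraries (MM red, SHAM blue; the muscle panel has a wider axis). MM5 and SHAM6 are high and MM3 and SHAM8 low in the myelin and the fibroblast panels, and MM5 and SHAM6 are low in the neuron panel.

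None of the 9 myelin genes passed the test between MM and SHAM (edgeR's quasi-likelihood test, Benjamini-Hochberg adjusted p under 0.05 over 15774 genes), where 471 genes or 2.99% passed: 433 (2.75%) higher in MM and 38 (0.241%) lower. The fitted log2 fold changes of all 9 were above 0, with a median of 0.24, while the median over all genes was 0.00 and 48.9% of all genes were above 0. The 9 signs are not independent results, because 8 of the genes rose and fell together across the libraries. At an unadjusted p under 0.05 stood 1 of the 9, Egr2, against 22.5% of all genes. DESeq2 on the same sums called 1 of the 9, Egr2, against 7.61% of all genes. The values of each gene follow by role.

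Compact myelin holds the most abundant members. Mbp (ENSMUSG00000041607) encodes the basic protein that seals the cytoplasmic faces of the membrane together. Its level ranged from 1219 CPM in MM3 over a median of 2571 to 5684 CPM in MM5 within MM, and from 797 CPM in SHAM8 over a median of 2162 to 4312 CPM in SHAM6 within SHAM. The MM values lay inside the SHAM range in 8 of 9 libraries, MM5 being the exception. The fitted difference was a log2 fold change of 0.19 ± 0.30 (SE; 95% interval -0.44 to 0.82; edgeR adjusted p = 0.724).

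Pmp22 (ENSMUSG00000018217), a membrane protein of the compact layers whose dose is critical in nerve, ranged from 1417 CPM in MM3 over a median of 2562 to 5101 CPM in MM5. In SHAM it ranged from 955 CPM in SHAM8 over a median of 2023 to 3873 CPM in SHAM6. Of the MM libraries 7 lay above the SHAM median, yet 8 of 9 lay inside the SHAM range. The log2 fold change was 0.24 ± 0.24 (SE; 95% interval -0.27 to 0.75; edgeR adjusted p = 0.568).

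Mal (ENSMUSG00000027375), a proteolipid that travels with lipid-rich membrane to the sheath, ranged from 148 CPM over a median of 296 to 657 CPM in MM and from 112 CPM over a median of 238 to 473 CPM in SHAM. Again MM5 alone exceeded the SHAM range, and the log2 fold change was 0.26 ± 0.27 (SE; 95% interval -0.30 to 0.83; edgeR adjusted p = 0.575).

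The membrane facing the axon and the outer sheath gave the same picture. Mag (ENSMUSG00000036634), the glycoprotein that holds the innermost layer to the axon, ranged from 15.6 CPM over a median of 34.2 to 79.1 CPM in MM and from 12.1 CPM over a median of 33.1 to 57.4 CPM in SHAM. Its medians were nearly equal, 8 of 9 MM libraries lay inside the SHAM range, and the log2 fold change was 0.24 ± 0.29 (SE; 95% interval -0.37 to 0.84; edgeR adjusted p = 0.642). Prx (ENSMUSG00000053198), periaxin, anchors the outer Schwann cell membrane to the basal lamina through DRP2 and dystroglycan. It ranged from 224 CPM over a median of 526 to 1426 CPM in MM and from 157 CPM over a median of 519 to 932 CPM in SHAM. Of the MM libraries 2 exceeded the SHAM range, and the log2 fold change was 0.29 ± 0.33 (SE; 95% interval -0.41 to 0.99; edgeR adjusted p = 0.622).

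The non-compact myelin and its junctions are served by Ncmap, Cldn19 and Gjb1. Ncmap (ENSMUSG00000043924), a membrane protein of non-compact myelin, had the narrowest range: 46.1 CPM over a median of 85.9 to 167 CPM in MM and 39.2 CPM over a median of 81.3 to 121 CPM in SHAM. Its log2 fold change was 0.07 ± 0.22 (SE; 95% interval -0.39 to 0.54; edgeR adjusted p = 0.867), an interval of 0.76-fold to 1.45-fold. Cldn19 (ENSMUSG00000066058), the claudin of the tight junctions between myelin turns, ranged from 46.9 CPM over a median of 128 to 266 CPM in MM and from 43.9 CPM over a median of 113 to 230 CPM in SHAM. The groups overlapped in 8 of 9 MM libraries, and the log2 fold change was 0.07 ± 0.31 (SE; 95% interval -0.58 to 0.72; edgeR adjusted p = 0.916). Gjb1 (ENSMUSG00000047797) encodes connexin 32, the gap junction protein that links successive turns of the sheath. It ranged from 7.10 CPM over a median of 22.1 to 49.1 CPM in MM and from 6.47 CPM over a median of 18.2 to 35.4 CPM in SHAM, with MM5 alone above the SHAM range. Its log2 fold change was 0.23 ± 0.32 (SE; 95% interval -0.43 to 0.89; edgeR adjusted p = 0.687).

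**Figure D3:**
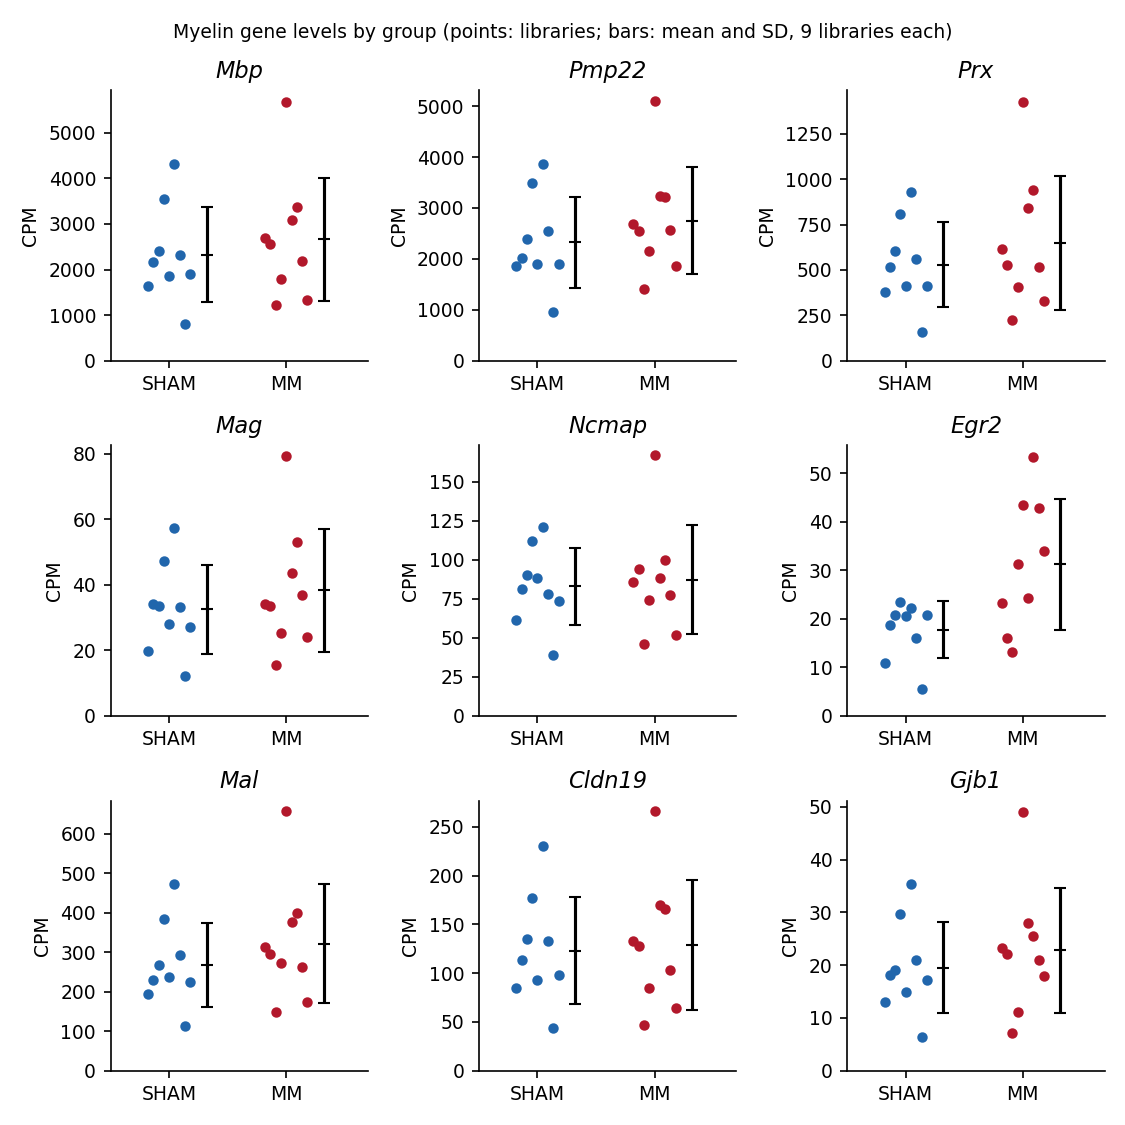
CPM of each myelin gene in the 9 SHAM (blue) and 9 MM (red) libraries on linear axes from 0; each point is a library, and the bars give the mean and SD. In 8 genes the points of the groups overlap, with MM5 as the highest MM point, and in Egr2 6 MM points lie above the highest SHAM point of 23.5 CPM.

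The myelin regulator stood apart from the structural genes. Egr2 (ENSMUSG00000037868), also known as Krox20, ranged from 13.1 CPM in MM3 over a median of 31.2 to 53.3 CPM in MM7 within MM, and from 5.57 CPM in SHAM8 over a median of 20.6 to 23.5 CPM in SHAM4 within SHAM. Of the MM libraries 6 lay above the highest SHAM library and 3 inside the SHAM range. The fitted difference was 1.77-fold, a log2 fold change of 0.82 ± 0.28 (SE; 95% interval 0.24 to 1.40), with an unadjusted p of 0.00783 and an edgeR adjusted p = 0.0999. It missed the threshold by edgeR and passed by DESeq2, at an adjusted p of 0.043. Over the edgeR and limma alternatives the adjusted p lay between 0.0535 (without MM2) and 0.61 (without MM5, MM8 and MM9 together, log2 fold change 0.60).

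Relative to Mbp in the same library, the TPM of Egr2 came to 0.925% ± 0.411 over the MM libraries and 0.571% ± 0.166 over the SHAM libraries (SD, n = 9 each). In 4 of 9 MM libraries, MM4, MM7, MM8 and MM9, this share was above the highest SHAM value of 0.881%, reaching 1.60% in MM9. MM9 was thus among the lowest libraries for the structural genes, ranking 16th for Mbp, and 6th for Egr2. The count was not particular to Egr2. Prx also had 4 MM libraries above its highest SHAM share of Mbp, and Gjb1 had 2. Pmp22 and Mal had 1 each, and Mag, Ncmap and Cldn19 had 0. The shares of Pmp22 and Gjb1 were highest in MM9 as well. Macrophages and some lymphocytes also use Egr2. Of the 10 macrophage markers 7 passed as higher in MM (edgeR adjusted p under 0.05), against 2.75% of all genes. The other 3 did not pass: Mrc1 (log2 fold change 0.90), Csf1r (0.58) and Cx3cr1 (-0.11). Cd68, a lysosomal protein of macrophages, had a log2 fold change of 3.11 ± 0.60 (SE; edgeR adjusted p = 0.0171); without MM5, MM8 and MM9 together it was 1.33 and did not pass. The summed macrophage markers ran from 87.8 to 591 CPM in MM and from 55.6 to 138 CPM in SHAM; MM7, highest in Egr2, held 145 CPM. The part of these cells in the Egr2 value was not tested. The related immediate-early genes Egr1 (log2 fold change 0.61 ± 0.43, SE; edgeR adjusted p = 0.406) and Egr3 (0.39 ± 0.30, SE; adjusted p = 0.447), chosen after their values were seen, did not pass.

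**Figure D4:**
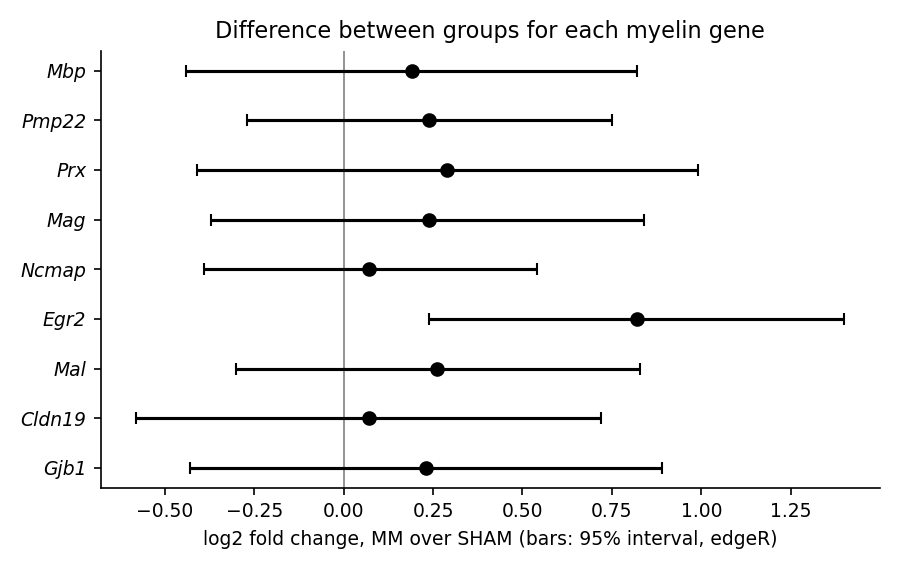
Fitted log2 fold change of each myelin gene, MM over SHAM, with its 95% interval from edgeR (18 libraries). The intervals of 8 genes include 0, and that of Egr2 runs from 0.24 to 1.40.

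The small positive log2 fold changes of the structural genes were lower without MM5, and some turned negative. With that library left out, the log2 fold change was -0.03 for Mbp, -0.10 for Ncmap and -0.14 for Cldn19. It was 0.0026 for Gjb1 and between 0.03 and 0.08 for Mag, Prx, Mal and Pmp22. Without SHAM6, the highest SHAM library, it was 0.36 for Mbp, 0.37 for Pmp22 and 0.43 for Prx. None of the 8 structural genes passed in any of these fits.

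Estimates per transcript showed which annotated starts and isoforms the reads came from; Salmon divides reads that isoforms share, and the error of that division is not part of the values. The files held 55 transcripts of the 9 genes. Of the 27 that could be tested none passed (edgeR, adjusted p under 0.05 over 33345 transcripts, where 0.33% passed), and 2 were at an unadjusted p under 0.05, against 14.0% of all transcripts: Egr2-201 and Mbp-205.

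Mbp is transcribed from distant starts. The upstream one makes the golli transcripts, found in neurons and immune cells as well as in myelinating glia, and the downstream one the classic myelin protein. In GENCODE M21 the classic starts lie 79324 bases or more after the first golli start. The golli transcripts barely varied: over all 18 libraries they summed to between 40.7 and 56.8 CPM, a 1.40-fold range, averaging 48.0 ± 3.92 CPM over MM and 53.2 ± 3.17 CPM over SHAM (SD, n = 9 each). The classic transcripts ran from 750 CPM in SHAM8 to 5634 CPM in MM5, a 7.51-fold range. Golli thus made up 0.88% of the reads of Mbp in MM5 and 5.91% in SHAM8. Its main transcript, Mbp-205, had a log2 fold change of -0.15 ± 0.06 (SE; edgeR adjusted p = 0.275).

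**Figure D5:**
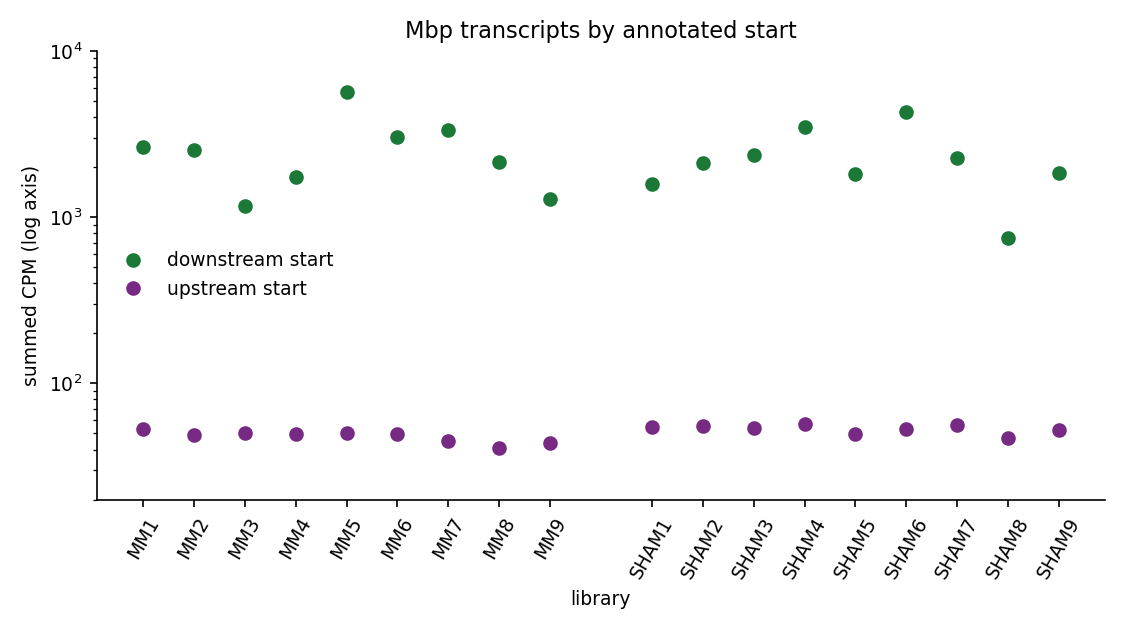
Summed CPM of Mbp transcripts from the upstream (golli, purple) and the downstream (classic, green) annotated starts in each library, on a log axis. The purple points stay between 40.7 and 56.8 CPM while the green points run from 750 to 5634 CPM.

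Among classic Mbp transcripts, Mbp-211, annotated with 128 residues, held 73.69% ± 1.58 of the reads of the gene over MM libraries and 72.77% ± 3.06 over SHAM libraries (SD, n = 9 each). Mbp-212, with 169 residues, held 13.38% ± 0.95 and 13.58% ± 1.32, and Mbp-215, with 154 residues, 9.28% ± 0.48 and 9.13% ± 0.72. The isoform make-up was thus nearly the same in both groups while the total varied over several-fold.

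The starts of Pmp22, by contrast, moved together. Pmp22-204, from the first start, and Pmp22-201, from a start 2530 bases further on, encode the same 160 residues. The first ran from 681 CPM in SHAM8 to 3710 CPM in MM5, a 5.45-fold range, and the second from 263 CPM in SHAM8 to 1333 CPM in MM5, a 5.07-fold range. The first start, whose printed promoter held no match to the 4 motifs, carried 72.2% ± 1.40 of Pmp22 reads over MM libraries and 72.8% ± 1.33 over SHAM libraries (SD, n = 9 each). Its share stayed between 69.3% and 74.4% in all libraries.

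Gjb1 used nearly 1 start alone. Gjb1-203, which begins nearest the coding exon and behind the printed promoter, held between 97.1% and 100% of the reads of the gene. The upstream starts had between 0 and 7 reads per library. All annotated forms encode the same 283 residues.

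For the other genes the isoform with the largest mean share was the same in both groups. Mag-203, annotated with 582 residues, held 79.32% ± 3.47 of Mag reads in MM and 76.93% ± 4.91 in SHAM. Mag-207, with 627 residues, had at most 43 reads, and at most 11.71% of Mag reads (in SHAM1). Prx-202, which encodes 1391 residues, held 57.91% ± 5.83 and 58.15% ± 4.79, and Prx-203, the short form of 148 residues, 38.35% ± 3.46 and 38.99% ± 2.30 (SD, n = 9 each). Mal-202 held at least 99.69% of Mal reads in every library. Cldn19-202 held 86.83% ± 1.19 in MM and 88.59% ± 0.93 in SHAM, and Ncmap-203 held 82.89% ± 5.15 and 84.89% ± 6.01. Egr2-201, with 470 residues, held 78.14% ± 11.1 of Egr2 reads in MM and 82.57% ± 8.80 in SHAM; its log2 fold change was 0.80 ± 0.32 (SE; edgeR adjusted p = 0.263). Some minor isoforms varied widely: Ncmap-204, from a start upstream of that of Ncmap-203, held 7.78% ± 10.43 of Ncmap reads over MM libraries, up to 27.22% in MM9, and 0.97% ± 1.65 over SHAM libraries. Egr2-203 held 7.90% ± 10.68 of Egr2 reads over MM libraries, up to 30.09% in MM3, and 0.98% ± 1.64 over SHAM libraries (SD, n = 9 each). Others had the higher mean in SHAM. Ncmap-201 held 0.79% ± 2.38 of Ncmap reads over MM libraries and 2.14% ± 6.43 over SHAM libraries, up to 19.3% in SHAM1. Mag-207 held 0.22% ± 0.65 of Mag reads over MM libraries and 1.30% ± 3.90 over SHAM libraries (SD, n = 9 each). Each of these minor isoforms was estimated at 0 reads in some libraries and was below the filter for a test.

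Other genes of the myelin programme were counted beside the share of 2.99% of all genes called, which comes to under 1 gene in a list of this size, so a count of 0 is no result about them. None of 12 other myelin membrane and cytoplasmic proteins, 15 adhesion and basal lamina proteins, 10 lipid synthesis genes and 12 promyelinating regulators passed, with median log2 fold changes of 0.10, 0.07, 0.09 and 0.04 in that order. Of 9 tested negative regulators of myelination and 10 axon to Schwann cell signals none passed, with medians of -0.10 and -0.08. Degs1, a ceramide desaturase, was the most abundant lipid synthesis gene and ranged only from 197 CPM in MM5 to 247 CPM in MM2. Ugt8a, which makes the galactolipids of myelin, and Drp2, the partner of periaxin, both chosen after their values were seen, spread over 8.86-fold and 8.42-fold. Sox10, the partner of EGR2, also chosen after its values were seen, spread over 3.53-fold, with a log2 fold change of -0.08 ± 0.19 (SE; edgeR adjusted p = 0.823).

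Among the lists of Schwann cell states, 1 gene passed. Ncam1, the cell adhesion molecule kept by non-myelinating and repair Schwann cells and also made by neurons, ranged from 83.2 CPM in MM5 over a median of 97.4 to 117 CPM in MM. In SHAM it ranged from 107 CPM in SHAM6 over a median of 117 to 120 CPM. It fell by 0.22 ± 0.06 on the log2 scale (SE; edgeR adjusted p = 0.0466), as 1 of the 9 tested genes of its list, beside a share of 2.99% among all genes, so the count says nothing particular of the list. The call was lost in 13 of 18 fits that each left out 1 library (MM5 to MM9 and every SHAM library but SHAM6), while the log2 fold change stayed between -0.25 and -0.16 over 27 alternatives, with adjusted p between 0.00622 and 0.274. None of 8 lineage markers and 9 tested satellite glia markers passed. S100b, a calcium-binding protein of Schwann cells and satellite glia, had a log2 fold change of -0.06 ± 0.08 (SE; edgeR adjusted p = 0.660).

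The genes most like the myelin set were found by the rank correlation, over 18 libraries, of log2 CPM with the mean of the 9 genes, among 13723 genes with a mean of at least 1 CPM and a named symbol. The 8 highest were Plekha4 and Plekhb1 (Spearman's rho 0.992 each), Sparc (0.981), Aif1l and Kcnk5 (0.979 each), Ogn (0.977), and Limch1 and Emp2 (0.973 each). Each of the 8 was highest in MM5 and, within SHAM, in SHAM6, as the myelin genes other than Egr2 were. Ogn, a small proteoglycan, ranged from 74.6 CPM in SHAM8 to 685 CPM in MM5, and Kcnk5, a potassium channel, from 2.65 CPM to 26.4 CPM in the same libraries. None of the 8 passed between the groups; the lowest edgeR adjusted p was 0.408, for Plekhb1. The points are the same 18 whole-tissue libraries from which the set's own mean was taken.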

How the data were processed

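RNA of 18 ganglion libraries (9 MM, 9 SHAM) was quantified by the authors with Salmon 1.5.2 on the GRCm39 build, per the submitters' processing notes; index and options are not given in the sources used here. The deposited files give, per transcript, an estimated count, which was not scaled, and TPM, which Salmon scaled for length and depth, per the file headers. The authors also deposited a table of normalized signal per gene; DESeq2 is named in the submitters' processing notes.

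Estimated counts were summed per gene through GENCODE M21 (GRCm38) by Ensembl transcript number, as no annotation of the authors' build was used here, and rounded. Of 137562 transcripts, 3620 had no gene there and held 0.85% to 1.339% of reads. The filter filterByExpr left 15774 genes, which edgeR 4.0.16 (R 4.3.3) scaled by TMM and compared by its robust quasi-likelihood test in a model of group alone. Standard errors are the log2 fold change over the square root of F. The test was also run on simulated counts with 200 changed genes, and 3 of 154 calls were false. Of 50 genes changed 1.25-fold 18 were called, and of 50 changed 1.5-fold 40 were called. The simulated spread was that of SHAM alone. The median SD of log2 CPM was 0.14 in SHAM and 0.22 in MM, so these rates need not hold for the real comparison. For the myelin genes the SD in SHAM was 0.48 to 0.75, so the rates do not apply to them. Low values are limited by the reads per library, so that 3 counts is the limit where a count is 0.

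The members and the 21 other gene lists were chosen with earlier results of these data known. Named were all members, the 8 genes most like them and, per other list, up to 2 genes per direction with the lowest p among those passing or else the most abundant gene; not all of the latter are reported here. Alternatives used DESeq2 1.42.0, limma 3.58.1 (log2 of the deposited signal + 1), other scalings, no filter, a length offset, a replicate term and left-out libraries. Labels name no batch. Plots used Python 3.11.15 and matplotlib 3.10.9.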

Additional observations from a re-analysis of the deposited data

Results flagged for a closer look

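In MM, the value of MM5 lay apart from the other 8 libraries for 5 of the 9 genes, by the gap to the next library over the whole range (Dixon's limit for 9 libraries). Mbp was at 5684 CPM in MM5 and at 3381 CPM in the next library, Pmp22 at 5101 against 3232 CPM, and Mal at 657 against 400 CPM. Ncmap was at 167 CPM in MM5, with a gap of 0.551 of the range, and Gjb1 at 49.1 against 28.0 CPM. Reads from single starts were far from the rest in the same library: the classic start of Mbp at 5634 against 3336 CPM, the first start of Pmp22 at 3710 against 2368 CPM, and Gjb1-203 at 49.1 against 28.0 CPM. These 8 came from 32 groups tested. The limit marks about 1 in 20 by chance only where values are normally distributed, and it was applied to CPM without logs. Whether the same libraries would be marked on a log scale was not tested. The groups share libraries and reads and are not independent. No SHAM library was marked.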

How the results depend on the processing

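The number of myelin genes called was 0 in every alternative except DESeq2, where it was 1 (Egr2, adjusted p = 0.043). Leaving out single libraries gave 0 for the myelin genes, between 84 and 1014 for all genes (471 with all libraries) and between 17 and 29 for the other lists (29 with all libraries). Without MM5, MM8 and MM9 together 60 genes and 10 list genes passed, and without SHAM7 and SHAM8 together 35 and 12. DESeq2 called 1201 genes and limma on the deposited values 248. With the replicate number as a block, 8 genes and 4 list genes passed and none of the myelin genes. Same-numbered libraries correlated between -0.478 and 0.373, above 0.1 in 2 of 9 pairs, and 1 MM library correlated best with its own number. These correlations gave no sign of pairing by number. They cannot exclude it, since differences in tissue make-up between libraries also enter them.

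Values changed sign for 4 genes, none of which passed in any fit. Without MM5 the log2 fold change was -0.03 for Mbp, -0.10 for Ncmap and -0.14 for Cldn19, and without SHAM6 it was 0.36, 0.16 and 0.23 in the same order. Without SHAM8 it was -0.02 for Ncmap and -0.05 for Cldn19, and without SHAM7 and SHAM8 together it was -0.05 for each. Without MM5, MM8 and MM9 it was -0.03 for Ncmap, -0.02 for Cldn19 and -7.1e-05 for Gjb1, and limma on the deposited values gave -0.02 for Ncmap. Pmp22, Prx, Mag, Mal and Egr2 stayed above 0 in all 27 alternatives; the cause of the changes was not tested.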
